A study of Mus musculus with 30 samples.

Results

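Gastrodin, a phenolic glucoside of the orchid Gastrodia elata, was given to mice that also received angiotensin II. The comparison set 5 abdominal aorta libraries labelled AngII+GAS against 5 labelled AngII, out of 30 libraries in the series, all chosen by their group label. Both groups were wild-type C57BL/6 mice given angiotensin II at 500 ng/kg/min for 28 days. The AngII+GAS mice also received gastrodin at 5 mg/kg/day, and the AngII mice received saline in its place. A Control group of 5 mice with saline alone is given where its level helps to read a value. The sources used here do not give sex, age, time of dissection or the route of gastrodin. The series title concerns compounds acting on blood pressure under angiotensin II, and the comparison asks which aortic transcripts differed once gastrodin was added.

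Angiotensin II is the peptide hormone of the renin-angiotensin system. It binds the type 1 receptor on vascular smooth muscle, which couples through Gq proteins to phospholipase C, release of stored calcium and activation of myosin light chain kinase, so that the artery constricts. Nitric oxide made by the endothelium relaxes the muscle through cyclic GMP. Sustained exposure is known for medial thickening, deposition of collagen and fibronectin, and inflammation of the adventitia, the outer coat that carries fat, nerves and immune cells.

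Total RNA depleted of ribosomal RNA was sequenced, and the authors deposited an FPKM for each transcript, which is a fragment count divided by transcript length and library size. Transcripts listed for both groups were summed to 14489 genes, and the 11947 that reached 1 FPKM in 5 or more of the 10 libraries were tested. The 10 libraries held 73.1 to 78.8 M reads, as read from the steps between low values. Pairs of libraries correlated at 0.873 to 0.947 on the log2 scale. Smooth muscle markers were abundant, with a summed level of 3255 to 12129 FPKM in AngII+GAS and 5808 to 7350.1 FPKM in AngII. Neuron markers set 4 libraries apart. Their mean log2(FPKM + 1) over 23 genes was 5.09, 3.49 and 5.34 in AngII libraries 1, 4 and 5 and 2.54 in AngII+GAS library 2, against 0.40 to 0.73 in the other 6 libraries. Skeletal muscle and brown fat markers also varied, and the values stand beside the results they move with. Since these are bulk samples, fewer cells of a type and less RNA per cell cannot be told apart.

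No gene passed the threshold of 0.05 on the adjusted p. By limma on log2(FPKM + 1), 0 of 11947 genes were called higher in AngII+GAS (0.0%) and 0 lower (0.0%), and the smallest adjusted p was 0.401. Without adjustment, 147 genes (1.23%) were higher and 1279 (10.7%) lower at p under 0.05. Voom, which weights reads recovered from the FPKM before limma, also called 0 genes, with 432 higher and 471 lower at an unadjusted p under 0.05. Each gene described below is therefore a measured level with its spread, and none of them passed the test.

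The excess of lower genes depended on the scaling. Over all genes the median log2 fold change was −0.17, and 72.8% of genes lay below 0. TMM scaling, which aligns the bulk of genes between libraries, brought that share to 52.3% and the median to −0.01, with 465 genes higher and 527 lower at an unadjusted p under 0.05. The 10th to 90th percentiles of the fold changes were −0.57 and 0.26, with 68 genes above 1 and 271 below −1. Every AngII+GAS library lay above every AngII library for 11 genes (0.0921%) and below for 260 (2.18%), which became 59 and 68 with TMM scaling. Mitochondrially encoded genes held 23.4% ± 5.35 of the summed gene FPKM in AngII+GAS, 17.1% ± 4.81 in AngII and 22.8% ± 1.39 in Control (SD, n = 5 each). That difference had an exact two-sided permutation p of 0.0873, where the smallest p this design allows is 0.0079. The part it had in the shift of all genes was not tested. Values for lists of genes are given below both as fitted and relative to the median of all genes.

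**Figure D1:**
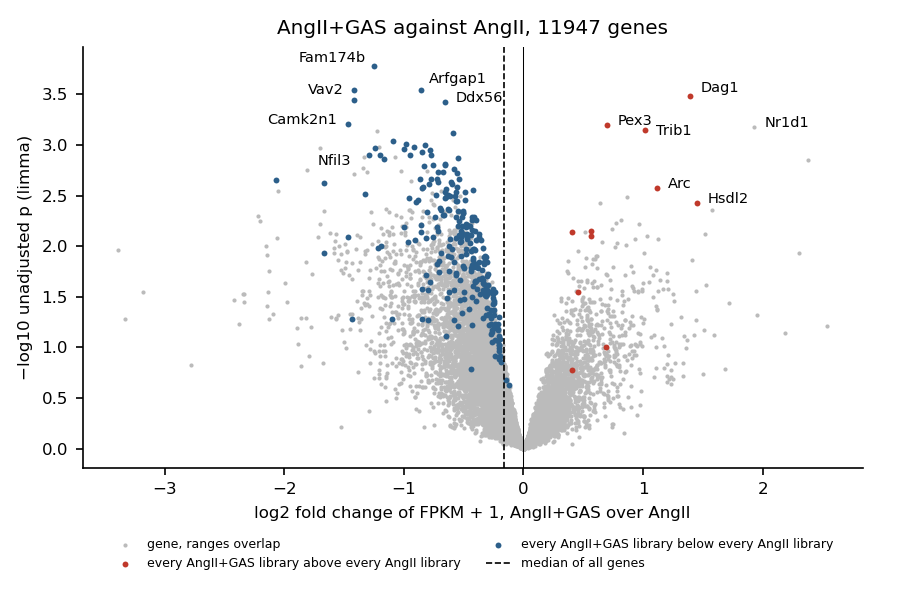
Each point is 1 of 11947 genes, with the log2 fold change of AngII+GAS over AngII on the x axis and the unadjusted p from limma on a −log10 scale on the y axis. The 11 genes in red and 260 in blue had group ranges that did not overlap, and the dashed line marks the median of −0.17.

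Among the 11 genes whose AngII+GAS libraries all lay above the AngII libraries, 10 averaged at least 2 FPKM in a group. Dag1 (chr9:108204634-108263958, minus strand) encodes dystroglycan, which ties laminin outside the cell to the cytoskeleton. It had 102, 90.5, 40.1, 115 and 106 FPKM in the AngII+GAS libraries, against 30.03, 35.3, 36.2, 26.5 and 33.0 FPKM in the AngII libraries. Means were 90.9 ± 29.8 FPKM in AngII+GAS and 32.2 ± 3.99 FPKM in AngII (SD, n = 5 each; log2 fold change 1.39, SE 0.27, unadjusted p = 0.000331, adjusted p = 0.401 by limma). Control stood between them at 56.9 ± 19.3 FPKM. AngII+GAS library 3 was close to the AngII range, and without it Dag1 was past the threshold, with a log2 fold change of 1.66 and an adjusted p of 0.00646 by limma. In what follows, means carry ± SD over 5 libraries, and a value in parentheses after a pair of means or of library values is the log2 fold change.

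The difference in Dag1 lay in 1 annotated transcript. Dag1-203, of 4415 bases, had 71.3, 54.6, 11.7, 87.0 and 73.0 FPKM in the AngII+GAS libraries and 2.32, 1.61, 7.27, 0.689 and 4.73 FPKM in the AngII libraries. Dag1-204, of 5662 bases, had 25.5, 34.9, 24.0, 24.5 and 28.8 FPKM in AngII+GAS and 23.9, 31.6, 25.0, 22.0 and 25.0 FPKM in AngII. Dag1-203 thus held 65.5% of the gene's FPKM in AngII+GAS and 10.3% in AngII, while Dag1-204 overlapped between the groups. How the authors' quantifier divided reads between such overlapping transcripts sets these values, and its part in the result was not tested.

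**Figure D2:**
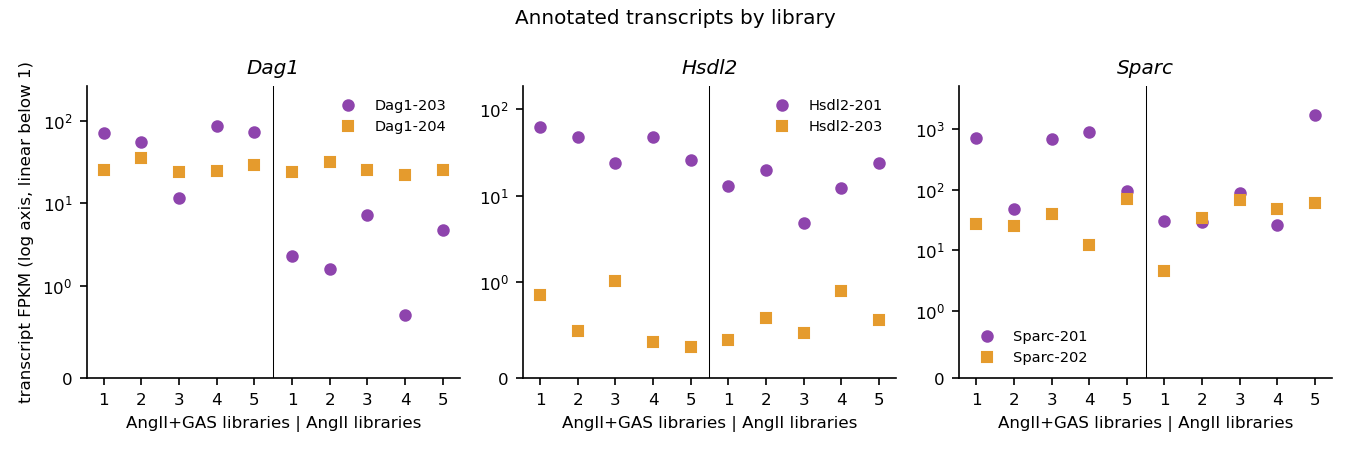
FPKM of annotated transcripts of Dag1, Hsdl2 and Sparc on a log axis, linear below 1, with the 5 AngII+GAS libraries left of the line and the 5 AngII libraries right of it. Dag1-203 separates the groups while Dag1-204 does not, and Sparc-201 ranges from 26.5 to 1707 FPKM within AngII.

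Pex3 (chr10:13523842-13553142, minus strand), needed to form the peroxisomal membrane, had 22.8, 18.7, 15.4, 21.4 and 16.4 FPKM in AngII+GAS and 9.35, 11.1, 13.5, 10.1 and 12.3 FPKM in AngII (log2 fold change 0.70, SE 0.15, unadjusted p = 0.000642, adjusted p = 0.401 by limma). Its 2 transcripts replaced each other from library to library, Pex3-202 being listed at 0 in AngII+GAS libraries 2 and 3 and in AngII library 3, but the sums kept the groups apart. Hsdl2 (chr4:59581563-59618689, plus strand), a hydroxysteroid dehydrogenase-like protein, had 62.5, 47.7, 25.0, 47.9 and 25.9 FPKM in AngII+GAS and 13.2, 20.5, 5.26, 13.1 and 24.7 FPKM in AngII (log2 fold change 1.45, SE 0.39, unadjusted p = 0.00373, adjusted p = 0.401 by limma). The groups nearly met, at 25.0 FPKM in AngII+GAS library 3 and 24.7 FPKM in AngII library 5, and Control averaged 39.9 ± 10.2 FPKM. Trib1 (chr15:59648350-59657099, plus strand), a pseudokinase that directs the COP1 ubiquitin ligase to its targets, had 19.2, 14.0, 14.0, 13.8 and 8.92 FPKM in AngII+GAS and 7.91, 7.55, 3.91, 6.64 and 5.83 FPKM in AngII (log2 fold change 1.02, SE 0.22, unadjusted p = 0.000718, adjusted p = 0.401 by limma). Across the alternatives the fold change of Pex3 ranged 0.58 to 0.95, that of Hsdl2 1.14 to 1.81 and that of Trib1 0.88 to 1.40, with no adjusted p under 0.05.

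Arc, an immediate early gene of neurons that acts at synapses, had 8.19, 3.32, 2.78, 3.34 and 6.46 FPKM in AngII+GAS and 1.91, 2.06, 2.15, 0.983 and 0.802 FPKM in AngII (log2 fold change 1.12, SE 0.29, unadjusted p = 0.00267, adjusted p = 0.401 by limma). All 5 AngII+GAS libraries lay above the AngII libraries at these low levels. The remaining genes of the set differed less. Stap2, a signalling adaptor, averaged 2.80 ± 0.472 FPKM in AngII+GAS and 1.60 ± 0.476 FPKM in AngII (log2 fold change 0.56). Ints10, a subunit of the Integrator complex that processes small nuclear RNA, averaged 6.29 ± 0.856 FPKM in AngII+GAS and 4.50 ± 0.337 FPKM in AngII (0.40). Its transcripts changed places, with Ints10-202, of 4192 bases, at 16.2% of the value in AngII+GAS and 80.0% in AngII. Ints10-203, of 2322 bases, held 49.6% in AngII+GAS and 3.96% in AngII. Across the alternatives the fold change of Ints10 ranged 0.19 to 0.58. The part of the transcript change in it was not tested. Cd59b, an inhibitor of the complement membrane attack complex with the close paralog Cd59a, averaged 7.30 ± 2.30 FPKM in AngII+GAS and 4.92 ± 0.542 FPKM in AngII (0.45). For Gyg, which primes glycogen synthesis, the mean difference rested on AngII library 3 at 8.12 FPKM, with the other AngII libraries at 36.0 to 40.3 and AngII+GAS at 41.2 to 54.0 FPKM. Bag6, a chaperone of tail-anchored proteins, rested likewise on AngII library 1 at 3.21 FPKM.

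**Figure D3:**
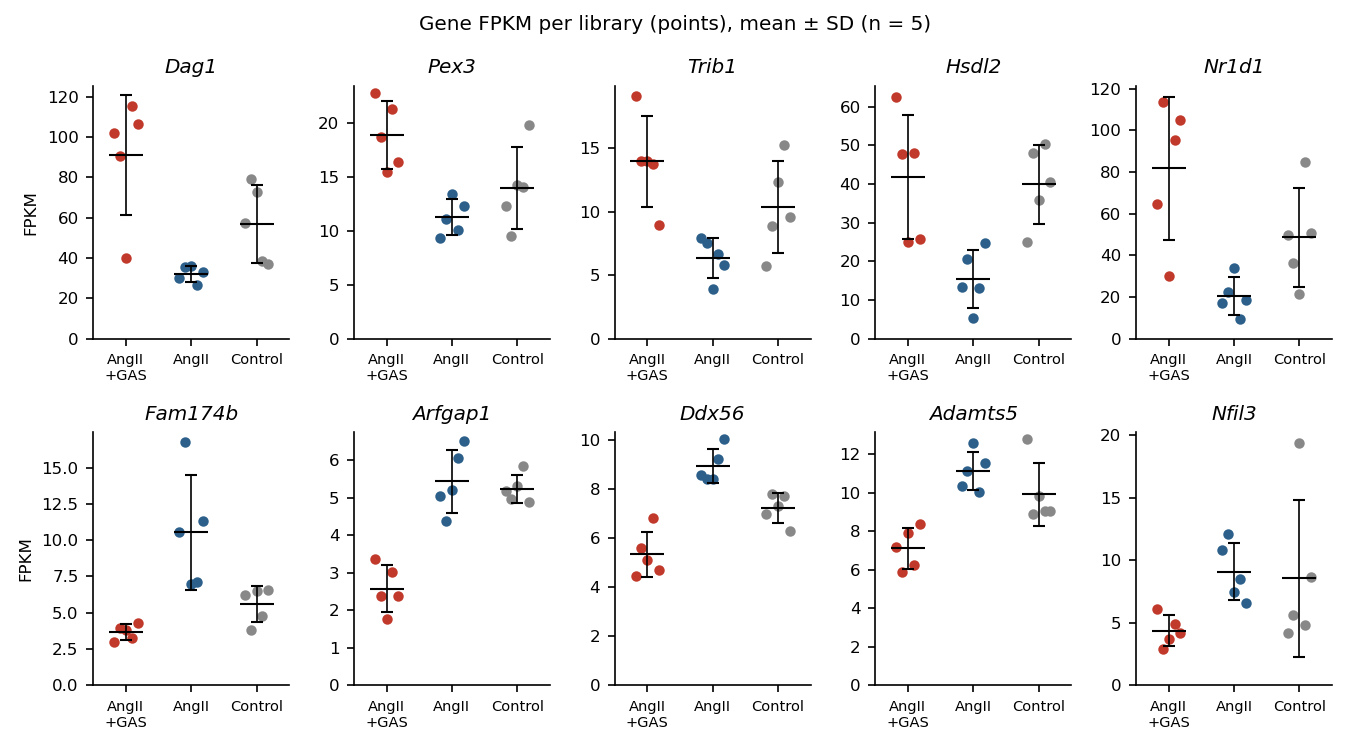
FPKM per library for 10 of the described genes in AngII+GAS, AngII and Control, with points for libraries and bars for the mean ± SD (n = 5). The upper row holds genes that averaged higher in AngII+GAS than in AngII, and only Nr1d1 has ranges that overlap. In the lower row every AngII+GAS library lies below every AngII library.

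Of the genes with every AngII+GAS library below every AngII library and a mean of at least 2 FPKM in a group, the 12 of smallest p are described, each with an adjusted p of 0.401 by limma. Among them, Vav2, Pex5l and Lrrcc1 were under 1 FPKM in most AngII+GAS libraries. They passed the filter through the AngII libraries, all of which held at least 1 FPKM, and so did Lrrn2, given below. The separation of these genes is partly a product of that selection. Fam174b (chr7:73740302-73776919, plus strand) had 2.99, 3.97, 3.77, 3.24 and 4.30 FPKM in AngII+GAS and 10.5, 16.7, 6.996, 7.08 and 11.3 FPKM in AngII. Means were 3.65 ± 0.535 FPKM in AngII+GAS and 10.5 ± 3.99 FPKM in AngII, with 5.57 ± 1.25 FPKM in Control (log2 fold change −1.25, SE 0.22), so the AngII+GAS libraries were the lowest of the 3 groups on average. In a fit of all 30 libraries it passed the threshold, with an adjusted p of 0.0373 by limma and the fold change unchanged, as did Lrrn2, a leucine-rich repeat membrane protein. Lrrn2, named after its values were seen, averaged 1.03 ± 0.331 FPKM in AngII+GAS and 3.01 ± 1.13 FPKM in AngII (−0.95).

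Arfgap1 (chr2:180967225-180982526, plus strand), which switches off the Golgi GTPase ARF1, had 3.37, 2.38, 1.75, 3.01 and 2.37 FPKM in AngII+GAS and 5.06, 4.39, 5.19, 6.06 and 6.50 FPKM in AngII (log2 fold change −0.86, SE 0.16). Control averaged 5.24 ± 0.375 FPKM, inside the AngII range. Arfgap1-210, annotated as a retained intron, held 49.4% of the Arfgap1 value in AngII+GAS and 36.5% in AngII. Ddx56 (chr11:6258919-6267772, minus strand), a nucleolar RNA helicase, had 4.46, 5.60, 5.09, 6.82 and 4.71 FPKM in AngII+GAS and 8.57, 8.43, 8.42, 9.22 and 10.04 FPKM in AngII (−0.66, SE 0.13). A gap separated the groups, with 6.82 FPKM as the highest AngII+GAS value and 8.42 FPKM as the lowest AngII value. Vav2, a guanine nucleotide exchange factor, had 0, 0, 1.39, 0.572 and 0 FPKM in AngII+GAS and 3.12, 1.61, 2.93, 2.38 and 2.56 FPKM in AngII (−1.42). It was listed at 0 in 3 of the 5 AngII+GAS libraries. Rasa4, a calcium-responsive activator of Ras GTP hydrolysis, averaged 3.43 ± 0.392 FPKM in AngII+GAS and 7.03 ± 2.08 FPKM in AngII (−0.82).

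Camk2n1, an inhibitor of calmodulin-dependent kinase II, had 2.81, 0.602, 1.02, 1.01 and 2.06 FPKM in AngII+GAS and 9.31, 3.44, 6.00, 3.67 and 7.28 FPKM in AngII (−1.47, SE 0.30). The kinase subunit Camk2d, of the calcium list, was lower in the same sense, with 7.19, 7.62, 4.54, 6.68 and 6.88 FPKM in AngII+GAS and 9.02, 9.77, 14.8, 13.9 and 16.6 FPKM in AngII (log2 fold change −0.85, SE 0.19, unadjusted p = 0.00118, adjusted p = 0.401 by limma). For both, no AngII+GAS library reached the AngII range. Pex5l, an auxiliary subunit of HCN pacemaker channels in neurons, averaged 0.642 ± 0.541 FPKM in AngII+GAS and 3.44 ± 1.77 FPKM in AngII, with 0.518 ± 0.563 FPKM in Control (−1.41). Kit, the stem cell factor receptor of mast cells, averaged 2.72 ± 0.81 FPKM in AngII+GAS and 7.16 ± 3.16 FPKM in AngII (−1.09), and AngII library 5 held the highest value, 12.8 FPKM. Lrrcc1, a centrosomal protein, had 1.15, 1.31, 0.0387, 0.0137 and 0.379 FPKM in AngII+GAS and 2.87, 1.81, 1.93, 2.37 and 3.96 FPKM in AngII (−1.24). D030056L22Rik averaged 1.73 ± 0.448 FPKM in AngII+GAS and 4.52 ± 1.54 FPKM in AngII (−0.98).

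The renin-angiotensin genes were at low or moderate levels. Agtr1a, the type 1 receptor, had 5.20, 5.39, 3.47, 3.36 and 2.27 FPKM in AngII+GAS and 9.16, 4.13, 2.82, 7.26 and 15.99 FPKM in AngII (log2 fold change −0.69, SE 0.38, unadjusted p = 0.0949, adjusted p = 0.456 by limma). The 3 AngII libraries high in neuron markers, 1, 4 and 5, held the highest values, and without the 4 neuron-rich libraries the fold change was 0.01. Agt, the precursor of the hormone, had 2.27, 1.60, 0, 0.122 and 0.403 FPKM in AngII+GAS and 0, 0.768, 1.48, 10.4 and 21.6 FPKM in AngII, where libraries 4 and 5 stood above all others. Ace, the converting enzyme, averaged 97.2 ± 30.7 FPKM in AngII+GAS and 115 ± 20.1 FPKM in AngII (−0.28), and the groups overlapped. Of the 9 tested members of the list, 2 lay above 0 and 7 below, and with TMM scaling 3 above and 6 below, with a median of −0.28, or −0.12 relative to all genes. Without AngII+GAS library 5 the median was −0.43, and without library 1 −0.17. The smallest p among members belonged to neprilysin, Mme, with 15.7 ± 5.37 FPKM in AngII+GAS and 11.0 ± 2.69 FPKM in AngII (0.44), on the higher side and to the prorenin receptor Atp6ap2, with 26.1 ± 6.20 FPKM in AngII+GAS and 36.7 ± 6.04 FPKM in AngII (−0.49), on the lower.

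The contractile list lay slightly below the median of all genes. Of 30 contractile genes, 1 lay above 0 and 29 below, and with TMM scaling 8 above and 22 below, with a median of −0.26, or −0.10 relative to all genes. Myl9, the regulatory light chain that myosin light chain kinase phosphorylates, had 575, 919, 516, 774 and 1069.5 FPKM in AngII+GAS and 1214, 1198, 1232, 1019 and 1298 FPKM in AngII (log2 fold change −0.68, SE 0.22, unadjusted p = 0.011, adjusted p = 0.401 by limma). Only AngII+GAS library 5 reached the AngII range. Flna, the actin cross-linker filamin A, had 172, 158, 168, 128 and 167 FPKM in AngII+GAS and 417, 271, 185, 272 and 209.7 FPKM in AngII (log2 fold change −0.72, SE 0.22, unadjusted p = 0.00706, adjusted p = 0.401 by limma), with no overlap, and its fold change was −0.22 with voom on recovered reads. Among Flna transcripts, Flna-212, of 1106 bases and annotated as a retained intron, averaged 34.7 ± 7.72 FPKM in AngII+GAS and 91.8 ± 19.2 FPKM in AngII, without overlap. The protein-coding transcripts Flna-201, Flna-202 and Flna-203 each overlapped between the groups. The part of Flna-212 in the voom value was not tested. Des, the intermediate filament desmin, averaged 36.0 ± 10.7 FPKM in AngII+GAS and 62.9 ± 20.8 FPKM in AngII (−0.77).

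The classical differentiation genes did not separate the groups. Acta2, smooth muscle actin, averaged 3735 ± 2156 FPKM in AngII+GAS and 3884 ± 517 FPKM in AngII (−0.21, SE 0.33), and Myh11, smooth muscle myosin, 489.9 ± 216 FPKM in AngII+GAS and 528 ± 56.8 FPKM in AngII (−0.20, SE 0.26). In both, AngII+GAS library 5 was the highest of the 10 libraries, at 7433 FPKM for Acta2 and 861 FPKM for Myh11, and library 1 the lowest, at 1770.3 and 293 FPKM. Mylk, myosin light chain kinase, averaged 106 ± 36.7 FPKM in AngII+GAS and 106 ± 7.10 FPKM in AngII (−0.06 as fitted, 0.12 with TMM scaling). Without AngII+GAS library 5 the median of the list was −0.49, and without library 1 it was −0.14. Ppp1r12b, a myosin phosphatase subunit and the only member above 0 as fitted, averaged 3.30 ± 0.327 FPKM in AngII+GAS and 2.998 ± 1.47 FPKM in AngII (0.17). Its transcript Ppp1r12b-208, not annotated as protein-coding, averaged 2.08 FPKM in AngII+GAS and 1.48 FPKM in AngII. Protein-coding Ppp1r12b-201 averaged 0.860 FPKM in AngII+GAS and 0.990 FPKM in AngII. The mean log2(FPKM + 1) of the list was 5.91, 6.25, 6.28, 6.25 and 7.08 in AngII+GAS, against 6.77, 6.82, 6.60, 6.51 and 6.54 in AngII.

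Calcium handling genes lay slightly below the median of all genes. Of 28 calcium signalling genes, 5 lay above 0 and 23 below, and with TMM scaling 8 above and 20 below, with a median of −0.32, or −0.15 relative to all genes, and the mean log2(FPKM + 1) over the 28 genes was 3.33 ± 0.13 in AngII+GAS and 3.63 ± 0.11 in AngII. Itpr1, the receptor that releases stored calcium, was on the other side, with 7.18, 6.62, 9.31, 5.66 and 7.11 FPKM in AngII+GAS and 1.65, 6.12, 5.45, 6.71 and 6.77 FPKM in AngII (0.45), and AngII library 1 alone was low. The whole Itpr1 value came from Itpr1-206, of 939 bases, as no other Itpr1 transcript was listed for both groups. It thus does not give the level of longer Itpr1 transcripts. Cacna1c, the L-type channel, had no transcript listed for both groups and was not analysed here. Rock1, a kinase that inhibits myosin phosphatase, averaged 31.6 ± 10.2 FPKM in AngII+GAS and 39.4 ± 9.59 FPKM in AngII (−0.33), and Arhgef25, an exchange factor that acts downstream of Gq, 14.1 ± 4.05 FPKM in AngII+GAS and 21.05 ± 3.01 FPKM in AngII (−0.57). Of 8 potassium channel genes, 3 lay above 0 and 5 below, and with TMM scaling 4 above and 4 below, with a median of −0.21, or −0.04 relative to all genes. The median was −0.11 without AngII+GAS library 1. Kcnk3, a background potassium channel that is also on the list of brown fat markers, averaged 62.2 ± 39.1 FPKM in AngII+GAS and 41.4 ± 11.7 FPKM in AngII (0.31).

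In the nitric oxide pathway, genes for the cyclic GMP enzyme and for breakdown of its inhibitor averaged lower. Gucy1a1, a subunit of soluble guanylate cyclase, had 19.0, 21.9, 24.8, 19.0 and 30.1 FPKM in AngII+GAS and 44.6, 30.1, 25.7, 34.8 and 49.1 FPKM in AngII (log2 fold change −0.64, SE 0.20, unadjusted p = 0.00902, adjusted p = 0.401 by limma). Only AngII+GAS library 5 lay inside the AngII range. The highest values were in AngII libraries 1 and 5, which are rich in neuron markers, and without the 4 neuron-rich libraries the fold change was −0.27. Ddah2, which breaks down an endogenous inhibitor of nitric oxide synthase, had 3.84, 2.37, 5.52, 3.73 and 7.08 FPKM in AngII+GAS and 8.33, 10.4, 11.4, 6.80 and 9.21 FPKM in AngII (log2 fold change −0.94, SE 0.23, unadjusted p = 0.00228, adjusted p = 0.401 by limma). Again library 5 was the only one of AngII+GAS inside the AngII range. Nos3, the endothelial synthase, averaged 2.95 ± 2.09 FPKM in AngII+GAS and 2.82 ± 0.46 FPKM in AngII (−0.07 as fitted, 0.07 with TMM scaling), with 6.63 FPKM in AngII+GAS library 2. Of 15 members of the list, 3 lay above 0 and 12 below, and with TMM scaling 6 above and 9 below, with a median of −0.30, or −0.13 relative to all genes; without AngII+GAS library 5 the median was −0.52. Mrvi1, the cyclic GMP kinase substrate IRAG, averaged 6.67 ± 3.09 FPKM in AngII+GAS and 6.81 ± 4.97 FPKM in AngII (0.18).

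Receptors of other vasoconstrictors were mixed. Ednra, the endothelin A receptor of smooth muscle, had 4.77, 6.93, 4.61, 3.66 and 4.27 FPKM in AngII+GAS and 6.61, 7.10, 10.9, 5.97 and 11.8 FPKM in AngII, with 4.03 ± 0.265 FPKM in Control (log2 fold change −0.67, SE 0.21, unadjusted p = 0.00942, adjusted p = 0.401 by limma). AngII+GAS library 2 was the only one of its group inside the AngII range. Adra1a, an alpha-1 adrenergic receptor, had 5.43, 2.65, 2.86, 4.64 and 1.47 FPKM in AngII+GAS and 0.897, 0.662, 0.849, 3.88 and 0.897 FPKM in AngII (0.91), where AngII library 4 alone was high. Of 17 endothelin and adrenergic genes, 5 lay above 0 and 12 below, and with TMM scaling 6 above and 11 below, with a median of −0.28, or −0.11 relative to all genes. The median was −0.17 without AngII+GAS library 3.

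Matrix genes averaged lower in AngII+GAS, with wide spread inside AngII. Of 47 genes of the fibrillar matrix, 7 lay above 0 and 40 below, and with TMM scaling 13 above and 34 below, with a median of −0.36, or −0.20 relative to all genes. Fn1, fibronectin, had 116, 116, 146, 197 and 629.9 FPKM in AngII+GAS and 379.7, 431, 488, 459.7 and 279 FPKM in AngII, with 164 ± 57.1 FPKM in Control (log2 fold change −1.07, SE 0.43, unadjusted p = 0.0312, adjusted p = 0.401 by limma). In 4 of 5 AngII+GAS libraries it was below every AngII library, and library 5 was above them all. Most of the Fn1 value came from Fn1-202, of 4022 bases, annotated as a retained intron and not as protein-coding. It held 83.9% of the gene's FPKM in AngII+GAS and 88.0% in AngII, so the fold change mainly describes that transcript. Col1a1 and Col3a1, the main collagen chains of the adventitia, were highest in AngII library 3, at 1568 and 2120.1 FPKM. Col1a1 averaged 331 ± 150.4 FPKM in AngII+GAS and 666 ± 519 FPKM in AngII (−0.85, SE 0.46) and Col3a1 339 ± 155 FPKM in AngII+GAS and 801 ± 758 FPKM in AngII (−0.95, SE 0.51). Without that library they were at −0.47 and −0.50.

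Eln, elastin, averaged 208 ± 106 FPKM in AngII+GAS and 383 ± 205 FPKM in AngII (−0.92), and the groups overlapped from 146 to 340.0 FPKM. Of the Eln value, 34.0% in AngII+GAS and 49.5% in AngII came from Eln-204, annotated as a retained intron. Eln-204 averaged 70.8 FPKM in AngII+GAS and 189.8 FPKM in AngII. Protein-coding Eln-201 averaged 134 ± 110 FPKM in AngII+GAS and 187 ± 114 FPKM in AngII. Lama4, a laminin of vascular basement membranes, averaged 27.4 ± 4.89 FPKM in AngII+GAS and 35.8 ± 3.55 FPKM in AngII (−0.39), and the cross-linking enzyme Loxl2 had 1.11, 3.68, 2.26, 1.91 and 5.94 FPKM in AngII+GAS and 0, 2.25, 1.03, 1.88 and 2.24 FPKM in AngII. Sparc, a matricellular protein named after its values were seen, had 747, 124, 744, 902 and 191 FPKM in AngII+GAS and 57.4, 72.3, 191, 80.5 and 1791 FPKM in AngII. The high values, in AngII+GAS libraries 1, 3 and 4 and in AngII library 5, came mostly from Sparc-201, a transcript that varied over more than an order of magnitude inside both groups. Without the 4 neuron-rich libraries the median of the matrix list was −0.75, and leaving out 1 library gave −0.47 to −0.22, the value nearest 0 without AngII library 3. Fibroblast markers moved with it: of 13 tested, 3 lay above 0 and 10 below, and with TMM scaling 3 above and 10 below, with a median of −0.42, or −0.76 without the 4 neuron-rich libraries and −0.25 without AngII+GAS library 4, and a summed level of 1801 to 3119.7 FPKM in AngII+GAS and 2572 to 4789 FPKM in AngII. Their part in the matrix values was not tested. Pi16, of adventitial fibroblasts, averaged 45.2 ± 12.6 FPKM in AngII+GAS and 67.2 ± 14.4 FPKM in AngII (−0.57), and Gpx3, a secreted glutathione peroxidase, 274 ± 200.5 FPKM in AngII+GAS and 201 ± 123 FPKM in AngII (0.37).

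Adamts5 (chr16:85856173-85901828, minus strand), which cleaves aggrecan and versican, was the only tested gene of the protease list whose groups did not overlap. It had 7.19, 5.88, 7.90, 6.21 and 8.36 FPKM in AngII+GAS and 10.4, 11.1, 12.6, 10.04 and 11.6 FPKM in AngII (log2 fold change −0.59, SE 0.13), and Control averaged 9.92 ± 1.64 FPKM. Of 20 proteases and inhibitors, 2 lay above 0 and 18 below, and with TMM scaling 5 above and 15 below, with a median of −0.40, or −0.23 relative to all genes. The median was −0.66 without the 4 neuron-rich libraries. In the TGF-beta list of 20 genes, 5 lay above 0 and 15 below, and with TMM scaling 8 above and 12 below, and the median of −0.17 was that of all genes, with −0.30 to −0.10 on leaving out 1 library (the lowest without AngII+GAS library 5, the highest without AngII+GAS library 4). Tgfbi, a matrix protein induced by TGF-beta, averaged 69.3 ± 16.1 FPKM in AngII+GAS and 112 ± 38.7 FPKM in AngII (−0.65), while Ltbp3, which binds latent TGF-beta, had 20.5, 7.09, 29.3, 36.3 and 1.62 FPKM in AngII+GAS and 27.3, 0, 0, 0 and 8.30 FPKM in AngII.

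Mitochondrial and fatty acid genes averaged higher, against the shift of all genes. Of 45 nuclear genes of oxidative phosphorylation, 41 lay above 0 and 4 below, and with TMM scaling 42 above and 3 below, with a median of 0.36, or 0.53 relative to all genes; 27.2% of all genes lay above 0. Of 28 genes of fatty acid oxidation, 25 lay above 0 and 3 below, and with TMM scaling 27 above and 1 below, with a median of 0.53, or 0.70 relative to all genes. Without AngII+GAS library 1 the fatty acid oxidation median was 0.32, and without library 5 0.80. The counts of 0 genes past the threshold held here too, and the groups overlapped for every member of both lists. The fatty acid oxidation score was 7.06, 5.62, 6.64, 6.52 and 5.50 in AngII+GAS, 5.97, 5.86, 5.47, 6.14 and 5.40 in AngII and 6.45 ± 0.25 in Control. AngII+GAS libraries 1, 3 and 4 were above every AngII library, and libraries 2 and 5 were inside the AngII range.

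Single members showed the same spread. Pdk4, a kinase that turns mitochondria from glucose to fatty acid use, had 467, 198, 254, 271 and 102 FPKM in AngII+GAS and 175, 78.9, 110.4, 241 and 54.2 FPKM in AngII (log2 fold change 1.00, SE 0.47, unadjusted p = 0.0576, adjusted p = 0.422 by limma). Cox6a1, a cytochrome oxidase subunit, averaged 908 ± 271 FPKM in AngII+GAS and 636 ± 123 FPKM in AngII (0.48). Members on the other side were Atp5g3, an ATP synthase subunit with close paralogs, with 31.4 ± 12.5 FPKM in AngII+GAS and 81.6 ± 67.1 FPKM in AngII (−1.13), of which AngII library 5 held 199 FPKM, and Cpt2, a carnitine palmitoyltransferase, with 43.8 ± 22.0 FPKM in AngII+GAS and 67.8 ± 17.9 FPKM in AngII (−0.72). Of 9 mitochondrially encoded genes tested, 7 lay above 0 and 2 below, with a median of 0.54, or 0.70 relative to all genes, but 0.00 with quantile normalization, which gives every library the same distribution of values. mt-Nd5 averaged 9485 ± 3217 FPKM in AngII+GAS and 5492 ± 1617 FPKM in AngII (0.74) and mt-Nd1 8244 ± 3719.9 FPKM in AngII+GAS and 9316 ± 1962 FPKM in AngII (−0.28).

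Brown fat markers moved with these lists. All 12 tested markers lay above 0 as fitted and with TMM scaling, with a median of 0.70, or 0.87 relative to all genes, and their summed level was 1436 to 6241 FPKM in AngII+GAS and 615 to 3178 FPKM in AngII. Without AngII library 5 the median was 0.39. The list shares 2 genes with that of oxidative phosphorylation, 3 with that of fatty acid oxidation and 1, Kcnk3, with that of potassium channels. Zic1 and Lhx8 were not listed for both groups. Ucp1, the thermogenic uncoupling protein that defines brown adipocytes, had 3834, 1648, 2545, 2635 and 819.9 FPKM in AngII+GAS and 1422, 1113, 953, 1917 and 275 FPKM in AngII (1.09). Plin5, a lipid droplet protein of oxidative tissue, averaged 38.7 ± 19.3 FPKM in AngII+GAS and 16.8 ± 6.36 FPKM in AngII (1.08). AngII+GAS library 1 was highest and AngII library 5 lowest for Ucp1, and AngII+GAS libraries 2 and 5 again lay inside the AngII range. With the neuron and skeletal muscle scores as terms, the medians were 0.15 for oxidative phosphorylation, 0.29 for fatty acid oxidation and 0.22 for brown fat. Without the 4 neuron-rich libraries they were 0.47, 0.74 and 0.74 in the same order, so these 2 alternatives moved them in opposite directions. The part of perivascular brown fat in these values was not tested. White fat markers did not follow, with 8 of 17 above 0 as fitted and 10 with TMM scaling, among them the lipase Pnpla2 with 360.1 ± 63.0 FPKM in AngII+GAS and 255 ± 79.8 FPKM in AngII (0.55). Lep, leptin, had 1.02, 1.95, 0.0367, 0.405 and 0.0935 FPKM in AngII+GAS and 1.87, 17.1, 1.78, 2.67 and 2.18 FPKM in AngII (−1.49).

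**Figure D4:**
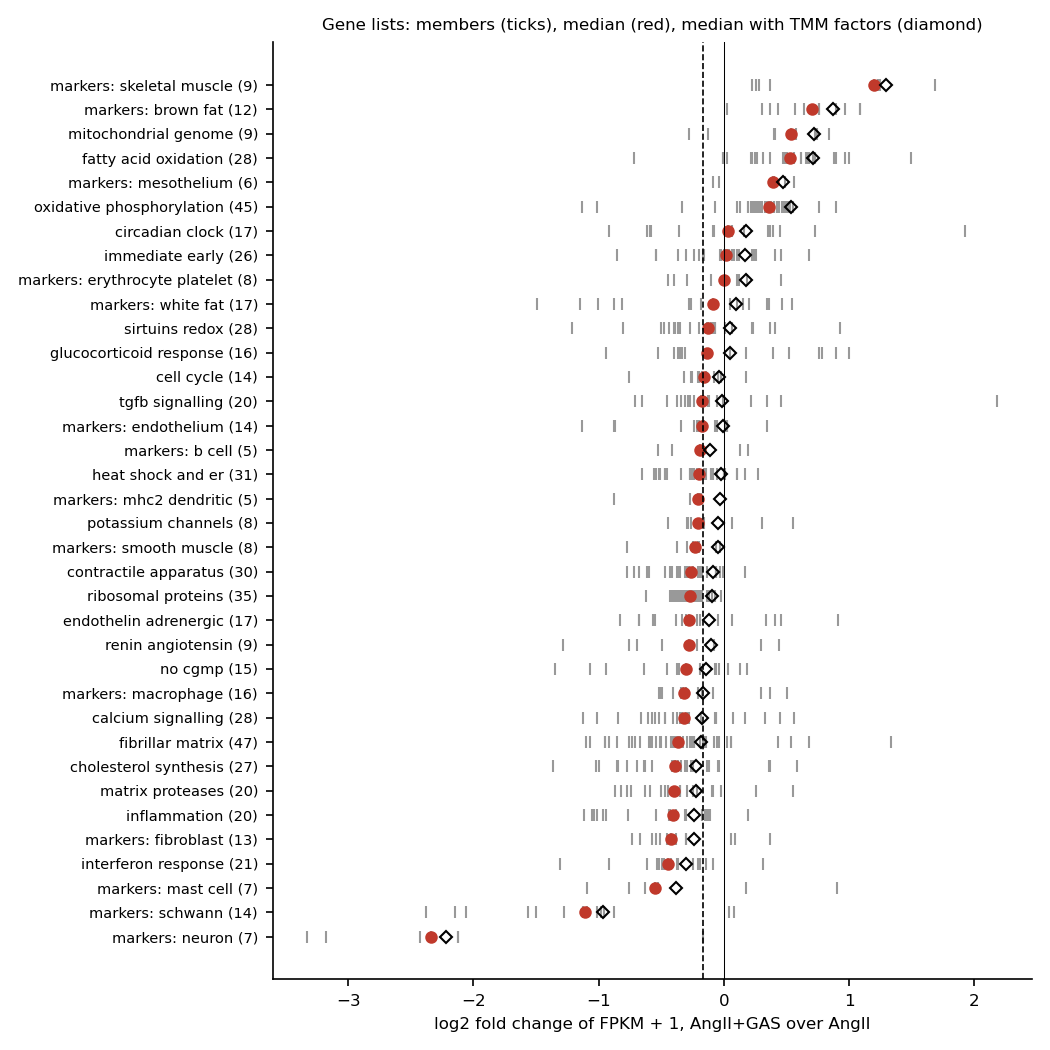
Log2 fold changes of AngII+GAS over AngII for the lists reported here that had at least 5 tested members, whose number stands in parentheses. Grey ticks are members, red points medians as fitted, open diamonds medians with TMM scaling, and the dashed line the median of all genes at −0.17. Skeletal muscle, brown fat, mitochondrial and fatty acid lists lie to the right, and Schwann cell and neuron markers to the left.

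Nr1d1 (chr11:98767932-98775333, minus strand) encodes REV-ERB alpha, the nuclear receptor that represses Arntl in the circadian loop, and Nfil3 (chr13:52967209-52981073, minus strand) encodes a bZIP repressor of the same network. REV-ERB alpha binds sites that contain AGGTCA and is known in mice to repress Nfil3 as well. The 300 bases around each start site, 250 before and 50 after it in RefSeq on GRCm38.p6, are shown because these genes differed in opposite directions. Capitals mark AGGTCA on either strand. The E-box CACGTG, on which the clock activators bind, was also searched, and neither window held one.

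Nr1d1 promoter, chr11:98775328-98775627, minus strand: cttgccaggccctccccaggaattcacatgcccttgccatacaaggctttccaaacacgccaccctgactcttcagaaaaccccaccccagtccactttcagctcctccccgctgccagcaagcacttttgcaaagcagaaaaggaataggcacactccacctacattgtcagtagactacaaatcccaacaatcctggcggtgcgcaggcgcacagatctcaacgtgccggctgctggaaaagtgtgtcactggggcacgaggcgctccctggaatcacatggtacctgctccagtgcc
Nfil3 promoter, chr13:52980990-52981289, minus strand: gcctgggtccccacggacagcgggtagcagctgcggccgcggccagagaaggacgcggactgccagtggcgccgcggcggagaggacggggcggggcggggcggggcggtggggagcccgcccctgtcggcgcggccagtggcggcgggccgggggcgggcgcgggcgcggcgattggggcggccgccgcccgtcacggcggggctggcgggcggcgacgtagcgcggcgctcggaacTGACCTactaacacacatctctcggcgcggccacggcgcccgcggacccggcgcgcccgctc

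The Nfil3 window held 1 AGGTCA, written on the reverse strand as TGACCT, and the Nr1d1 window none. Of 32851 promoter windows, 16.3% held AGGTCA and 7.15% held CACGTG. Of 17 clock genes with a window, 5 held each motif in any of their windows. That count is over genes, so it cannot be set against the shares over windows. A match is a description of the letters only.

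Nr1d1 had 64.7, 114, 30.01, 95.2 and 105 FPKM in AngII+GAS and 17.1, 22.4, 34.0, 9.25 and 18.7 FPKM in AngII. Means were 81.7 ± 34.3 FPKM in AngII+GAS and 20.3 ± 9.03 FPKM in AngII, with 48.6 ± 23.6 FPKM in Control (SD, n = 5 each; log2 fold change 1.93, SE 0.40, unadjusted p = 0.000672, adjusted p = 0.401 by limma). The groups overlapped only through library 3 of each, at 30.01 FPKM in AngII+GAS and 34.0 FPKM in AngII. Without the 4 neuron-rich libraries the fold change was 1.24. Nfil3 had 6.11, 2.86, 3.71, 4.85 and 4.17 FPKM in AngII+GAS and 10.8, 12.1, 7.46, 8.50 and 6.58 FPKM in AngII, without overlap (log2 fold change −0.92, SE 0.20, adjusted p = 0.401 by limma). Of 17 clock genes tested, 9 lay above 0 and 8 below, and with TMM scaling 11 above and 6 below, with a median of 0.03, or 0.20 relative to all genes. The median was −0.14 without AngII+GAS library 5 and 0.15 without AngII+GAS library 1. The time of day at which the aortas were taken is not in the sources used here, and its part in these values was not tested. Immediate early genes, which respond to handling and stimulation, had 15 of 26 above 0 as fitted and 18 with TMM scaling. Among them Gadd45g averaged 21.3 ± 8.79 FPKM in AngII+GAS and 12.7 ± 4.60 FPKM in AngII (0.68) and Ier5 4.28 ± 1.56 FPKM in AngII+GAS and 6.54 ± 1.46 FPKM in AngII (−0.54). Of 16 glucocorticoid-responsive genes 8 lay above 0, also with TMM scaling, and Errfi1, an inhibitor of EGF receptor signalling, averaged 23.0 ± 5.32 FPKM in AngII+GAS and 29.3 ± 7.03 FPKM in AngII (−0.34).

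Sterol synthesis genes averaged lower. Of 27 genes of cholesterol and fatty acid synthesis, 3 lay above 0 and 24 below, and with TMM scaling 7 above and 20 below, with a median of −0.39, or −0.22 relative to all genes. Without AngII library 5 the median was −0.21. Cyp51, the sterol demethylase, had 8.65, 8.76, 6.83, 6.56 and 7.99 FPKM in AngII+GAS and 14.96, 14.4, 14.0, 9.04 and 24.4 FPKM in AngII, with 7.90 ± 1.45 FPKM in Control (log2 fold change −0.84, SE 0.22, unadjusted p = 0.00269, adjusted p = 0.401 by limma). All AngII+GAS libraries of Cyp51 lay below all AngII libraries. Scd1, the desaturase of abundant fat cell expression, lay on the other side with 4748 ± 1282 FPKM in AngII+GAS and 3106 ± 608 FPKM in AngII (0.59).

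Inflammatory and interferon genes averaged lower in both scalings. Of 20 inflammation genes, 1 lay above 0 and 19 below, and with TMM scaling 5 above and 15 below, with a median of −0.41, or −0.24 relative to all genes, which became −0.15 without AngII library 3. Ptgs1, the constitutive cyclooxygenase, had 4.82, 7.46, 6.84, 5.96 and 8.83 FPKM in AngII+GAS and 9.76, 9.78, 9.47, 10.1 and 11.9 FPKM in AngII (log2 fold change −0.54, SE 0.15, unadjusted p = 0.00445, adjusted p = 0.401 by limma), without overlap. Nfkb1, a subunit of NF-kappa B named after its values were seen, averaged 14.9 ± 1.68 FPKM in AngII+GAS and 20.4 ± 2.55 FPKM in AngII (−0.43), also without overlap. Its transcripts differed in direction. Protein-coding Nfkb1-201 averaged 7.90 FPKM in AngII+GAS and 6.74 FPKM in AngII, and Nfkb1-203, also coding, 3.50 and 5.64 FPKM. Retained introns Nfkb1-202 and Nfkb1-204 averaged 2.13 and 0.637 FPKM in AngII+GAS and 5.04 and 2.08 FPKM in AngII. Ptgs2, the inducible cyclooxygenase, had 3.34, 3.34, 3.68, 3.17 and 13.1 FPKM in AngII+GAS and 3.27, 3.56, 14.5, 2.95 and 1.23 FPKM in AngII, with 1 high library in each group, and Ccl2 was below the filter on low values. Of 21 interferon response genes, 1 lay above 0 and 20 below, and with TMM scaling 3 above and 18 below, with a median of −0.44, or −0.28 relative to all genes, but −0.11 without the 4 neuron-rich libraries. Ifit2 averaged 4.59 ± 0.971 FPKM in AngII+GAS and 6.60 ± 1.13 FPKM in AngII (−0.45) and Ifi27 409 ± 167 FPKM in AngII+GAS and 309 ± 52.8 FPKM in AngII (0.31).

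Of 16 macrophage markers, 3 lay above 0 and 13 below, and with TMM scaling 4 above and 12 below, and their summed level was 423 to 702 FPKM in AngII+GAS and 398 to 1004 FPKM in AngII. Cd163, a scavenger receptor of resident macrophages, averaged 14.4 ± 2.77 FPKM in AngII+GAS and 21.3 ± 5.76 FPKM in AngII (−0.51) and Itgam 6.28 ± 2.33 FPKM in AngII+GAS and 4.68 ± 1.80 FPKM in AngII (0.37). Of the Cd163 value, 62.3% in AngII+GAS and 70.0% in AngII came from Cd163-203, annotated as a retained intron. Of the dendritic cell and MHC class II markers, 5 of 11 were tested and all 5 lay below 0, as with TMM scaling, with Cd209a at 1.81 ± 1.00 FPKM in AngII+GAS and 4.59 ± 3.21 FPKM in AngII (−0.87), but the median was 0.06 without AngII library 3. T cell markers summed to 1.93 to 6.51 FPKM in AngII+GAS and 2.18 to 9.27 FPKM in AngII, and Cd3e, Cd3d, Cd4 and Cd8a were not listed for both groups. B cell markers summed to 6.62 to 75.5 FPKM in AngII+GAS and 16.8 to 90.9 FPKM in AngII, with 2 of 5 tested above 0 in both scalings. Mast cell markers summed to 32.4 to 52.9 FPKM in AngII+GAS and 33.0 to 98.5 FPKM in AngII; besides Kit, the tryptase Tpsb2 had 8.44, 5.06, 9.04, 7.43 and 0.54 FPKM in AngII+GAS and 1.64, 3.18, 4.88, 1.21 and 1.26 FPKM in AngII (0.90). Endothelial markers lay at the median of all genes, with 4 of 14 above 0 as fitted and 7 with TMM scaling. Emcn, endomucin, averaged 7.20 ± 3.09 FPKM in AngII+GAS and 13.9 ± 5.17 FPKM in AngII (−0.87) and the VEGF receptor Flt1 12.3 ± 7.22 FPKM in AngII+GAS and 8.77 ± 4.10 FPKM in AngII (0.35). Erythrocyte and platelet markers had 4 of 8 above 0 as fitted and 5 with TMM scaling.

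Redox, heat shock and cell cycle lists stayed near the shift of all genes, and ribosomal protein genes lay slightly below it. Sirt3, the mitochondrial deacetylase, had 17.0, 3.39, 15.6, 19.4 and 4.92 FPKM in AngII+GAS and 7.06, 3.92, 2.02, 10.2 and 3.64 FPKM in AngII (log2 fold change 0.93, SE 0.50, unadjusted p = 0.0924, adjusted p = 0.455 by limma), with AngII+GAS libraries 2 and 5 inside the AngII range and a fold change of 1.84 without the 4 neuron-rich libraries. Gclm, a subunit of the enzyme that limits glutathione synthesis, had 8.92, 2.49, 1.74, 1.59 and 8.24 FPKM in AngII+GAS and 9.77, 8.96, 10.5, 8.97 and 11.4 FPKM in AngII (log2 fold change −1.21, SE 0.39, unadjusted p = 0.0103, adjusted p = 0.401 by limma). Its groups did not overlap, but AngII+GAS libraries 1 and 5 were near the AngII values. Of 28 sirtuin and redox genes, 7 lay above 0 and 21 below, and with TMM scaling 16 above and 12 below, with a median of −0.12, or 0.04 relative to all genes. The median was −0.21 without AngII+GAS library 5 and −0.07 without AngII+GAS library 2. Hspd1, the mitochondrial chaperonin, had 36.6, 26.0, 32.1, 37.5 and 36.5 FPKM in AngII+GAS, 52.2, 43.0, 51.9, 56.5 and 45.9 FPKM in AngII and an average of 104 ± 19.8 FPKM in Control (log2 fold change −0.56, SE 0.14, unadjusted p = 0.00191, adjusted p = 0.401 by limma). It was thus lowest in AngII+GAS, while Hspa9, the mitochondrial HSP70, averaged 219 ± 81.8 FPKM in AngII+GAS and 172 ± 29.9 FPKM in AngII (0.27). Of 31 heat shock and endoplasmic reticulum genes, 7 lay above 0 and 24 below, and with TMM scaling 15 above and 16 below, with a median of −0.19, or −0.03 relative to all genes. The median was −0.30 without AngII+GAS library 5. In the cell cycle list of 14 tested genes, 1 lay above 0 and 13 below, and with TMM scaling 6 above and 8 below; the cyclin Ccnd1 averaged 5.94 ± 3.29 FPKM in AngII+GAS and 10.2 ± 3.02 FPKM in AngII (−0.76) and the inhibitor Cdkn1a 75.6 ± 24.4 FPKM in AngII+GAS and 64.6 ± 7.44 FPKM in AngII (0.18). All 35 ribosomal protein genes lay below 0 as fitted, and 28 with TMM scaling, with a median of −0.27, or −0.11 relative to all genes and Rpl5 at 106 ± 20.7 FPKM in AngII+GAS and 135 ± 16.1 FPKM in AngII (−0.36).

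Genes of peripheral nerve had the lowest medians of all lists, and they followed single libraries. Of 23 neuron markers 7 were tested and all lay below 0 in both scalings, with a median of −2.34, or −1.51 without AngII library 5. Without the 4 neuron-rich libraries the filter was applied again, and the median of the members still tested was 1.02. Over all 7, the mean log2(FPKM + 1) of the libraries left was 1.37, 1.37, 1.20 and 1.56 in AngII+GAS and 1.47 and 1.55 in AngII. These ranges overlapped, so the list as a whole did not turn. The summed level of the 23 markers was 36.8, 196, 44.0, 40.5 and 114 FPKM in AngII+GAS and 1343, 77.8, 20.6, 439.6 and 1808 FPKM in AngII. Hand2, a transcription factor of sympathetic neurons, had 0.291, 3.51, 0.418, 0.174 and 0.281 FPKM in AngII+GAS and 21.9, 0.531, 2.74, 5.11 and 23.3 FPKM in AngII. Of 14 Schwann cell markers, 2 lay above 0 and 12 below, and with TMM scaling 2 above and 12 below, with a median of −1.10, or −0.38 without the 4 libraries, and a summed level of 60.3 to 162 FPKM in AngII+GAS and 132 to 514 FPKM in AngII. Sox10, which specifies Schwann cells, had 1.13, 0, 0, 0 and 0 FPKM in AngII+GAS and 6.78, 0, 2.41, 5.05 and 15.8 FPKM in AngII, and S100b, a calcium-binding protein also made in fat, averaged 14.0 ± 4.63 FPKM in AngII+GAS and 12.8 ± 2.75 FPKM in AngII (0.08). AngII libraries 1, 4 and 5 had the highest scores of both lists.

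Skeletal muscle markers had the highest median, 1.20, with all 9 tested members above 0 in both scalings. Without AngII+GAS library 3 the median was 0.43. Without the 4 neuron-rich libraries it was −0.47, over the members that passed the filter again. Over all 9, the mean log2(FPKM + 1) of the libraries left was 4.86, 5.04, 1.56 and 2.13 in AngII+GAS and 3.31 and 3.43 in AngII. Acta1, skeletal actin, had 131, 28.3, 141, 2.07 and 7.78 FPKM in AngII+GAS and 19.3, 3.73, 31.4, 2.01 and 3.58 FPKM in AngII, with 586 ± 959 FPKM in Control. AngII+GAS libraries 1 and 3 held the highest values of these 10 libraries. The summed level of the markers was 30.8 to 406 FPKM in AngII+GAS and 17.7 to 435 FPKM in AngII, where AngII library 2 was the highest of the 10, and Tnni2, Ryr1, Ttn and Neb were not listed for both groups. Of 12 kidney markers 7, and of 9 adrenal cortex markers 8, were not listed for both groups, and mesothelial markers summed to 10.1 to 17.4 FPKM in AngII+GAS and 3.86 to 41.5 FPKM in AngII.

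**Figure D5:**
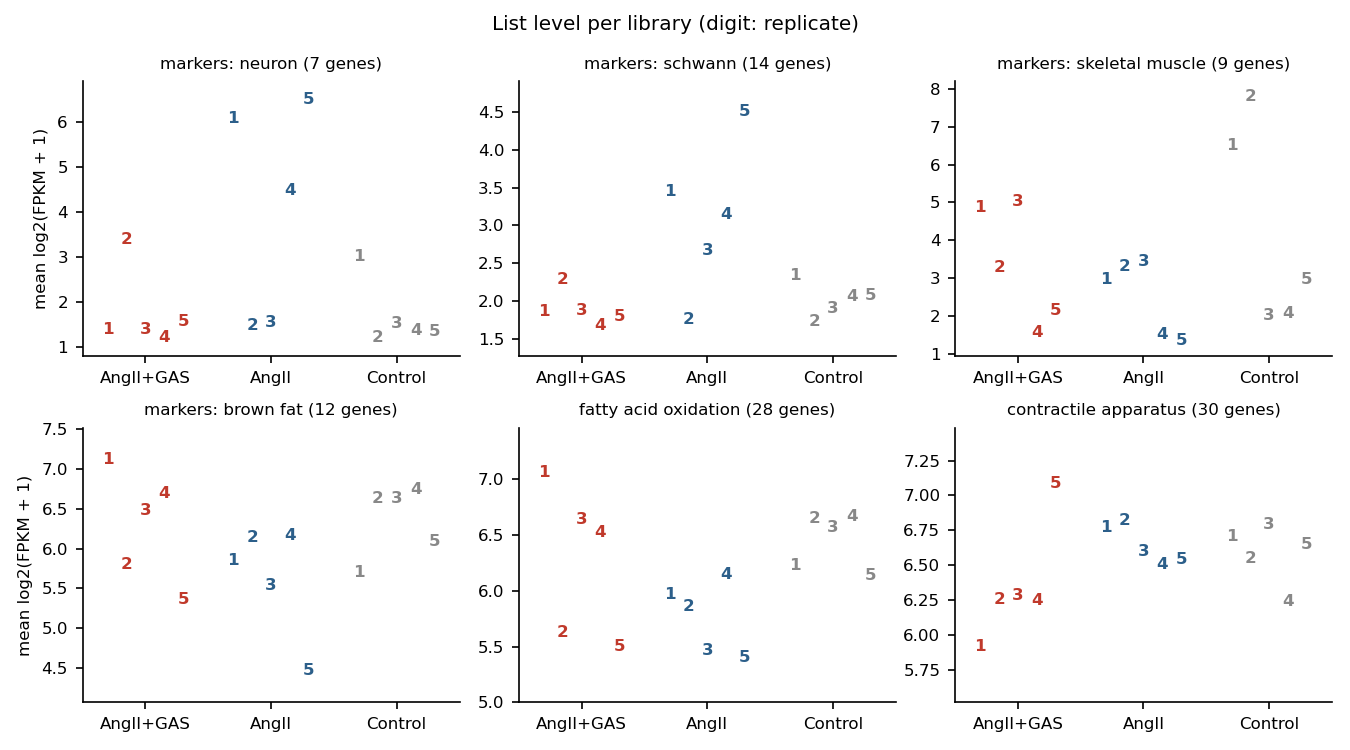
Mean log2(FPKM + 1) over the tested genes of 6 lists in each library of AngII+GAS, AngII and Control, with the digit giving the replicate. Neuron and Schwann cell scores are high in AngII libraries 1, 4 and 5, and AngII+GAS libraries 1, 3 and 4 lie above every AngII library for fatty acid oxidation.

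Since genes were summed over transcripts listed for both groups, transcripts seen in AngII+GAS alone do not enter the fit. The listing was one-sided, as transcripts listed for AngII and not for AngII+GAS averaged at most 0.4998 FPKM in AngII. Transcripts at 0.5 FPKM or more in AngII were thus kept, while some at that level in AngII+GAS were not. With unlisted transcripts set to 0, 19 genes had separated ranges higher and 262 lower. The part of the listing in the excess of lower genes was not tested. Transcripts listed for both groups had a mean of at least 0.5 FPKM in AngII+GAS or in AngII, and a transcript not listed for AngII was taken to average less than that there. There were 1167 annotated transcripts listed for AngII+GAS and not for AngII, and 154 genes had only such transcripts. A mean under 0.5 FPKM limits a single AngII library to 2.5 FPKM, and 0 of the 1167 had every AngII+GAS library above that. None therefore separated the groups by this bound, and they are not described further.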

How the data were processed

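The authors deposited FPKM of Ensembl and of newly assembled transcripts. No header names the unit, which was taken from the values. Build mm10 and limma are given per the submitters' processing notes. Which aligner, assembler and quantifier were used is not given in the sources used here. Per the labels' protocols, libraries came from a NEBNext kit, here one that does not mark strand, so antisense, overlapping and closely paralogous genes have uncertain values. Assembled transcripts were not assigned to genes.

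Of 40544 transcripts listed for both groups, 28472 matched GENCODE M21 (GRCm38), which gave names and coordinates, and were summed to 14489 genes. The sums include transcripts of every annotated type, retained introns among them. Depth came from low values, 98.7% to 98.9% of which lay within 0.1 read of a whole number. The deposited values cover 77.5% to 81.3% of those reads, and 3 reads in a 2 kb transcript equal 0.0190 to 0.0205 FPKM, for counting error only. Log2(FPKM + 1) was fitted with limma 3.58.1 (R 4.3.3; lmFit, eBayes with trend and robust), with 1 mean per group, 8 residual and 2.46 prior degrees of freedom. Fold changes on this scale understate those of low genes. The test was two-sided and adjusted by Benjamini-Hochberg over 11947 genes. The script was tested on simulated data. The labels name no batch.

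Named genes were those past the threshold, then up to 12 per direction with separated ranges, at least 2 FPKM and the smallest p, a panel of 18 genes, and the member of smallest p in each direction of 40 lists (23 pathway, 17 marker). Of these, 6 marker genes (Msln, Krt18, Nphs1, Pf4, Ppbp and Jchain), whose group ranges overlapped, are not described, and some genes and 1 pathway list are not reported here. Members and lists were chosen with earlier results of these data known. List medians and counts are descriptions. Alternatives covered the pseudocount, filters, scaling, weights, samples in the fit, transcripts summed, voom on recovered reads, marker scores as terms and each library left out. Where libraries were left out, the filter was applied again, so list medians there cover only the members still tested.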

Additional observations from a re-analysis of the deposited data

Results flagged for a closer look

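A sample was singled out when its gap to the nearest of the other 4 in its group exceeded 0.71 of the group's range. Of 276 groups of 5 checked, 29 were singled out, where chance gives about 5%.

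AngII+GAS library 5 stood high for Acta2 (7433 FPKM, others 1770.3 to 3342), Myh11 (861), Fn1 (630), Ptgs2 (13.1), Atp5g3 (53.4), Ccnd1 (11.7) and Pex5l (1.59). AngII+GAS library 2 stood high for Nos3 (6.63), Hand2 (3.51), Degs1 (64.3) and the mean log2(FPKM + 1) of the 7 tested neuron markers (3.39, others 1.20 to 1.56). AngII+GAS library 1 stood high for Bag6 (12.2) and was the only one of its group with Sox10 above 0 (1.13).

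AngII library 5 stood high for Pex5l (6.52), Kit (12.8), Ptgs1 (11.9), Atp5g3 (199), Flt1 (15.8) and Sparc (1791 FPKM, others 57.4 to 191). AngII library 3 stood high for Col1a1 (1568), Col3a1 (2120) and Ptgs2 (14.5), and low for Gyg (8.12). AngII library 1 stood low for Bag6 (3.21) and Itpr1 (1.65), and high for Peg3 (8.51, others 0.0349 to 0.125). AngII library 2 stood high for Lep (17.1) and Specc1l (10.9, others 0.119 to 1.41), and AngII library 4 for Adra1a (3.88). Peg3, Specc1l and Degs1 were named after their values were seen.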

How the results depend on the processing

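No gene passed the threshold as fitted or under 17 of the 22 alternatives, by limma. A fit of all 30 libraries called 2 genes lower (Fam174b and Lrrn2). Leaving out 1 library in turn gave 0 to 1 genes higher and 0 lower: without AngII+GAS replicate 3 Dag1 (log2 fold change 1.66), without AngII replicate 1 Peg3 (2.16) and without AngII replicate 2 Specc1l (2.96), the last 2 chosen after seeing the values. Without the 4 libraries high in neuron markers, an alternative chosen after seeing the data, 2 genes were higher, Jak2 (2.32) and Ap2a2 (2.34), and 1 lower, Degs1 (−4.30). At an unadjusted p under 0.05, leaving out 1 library gave 845 to 2615 genes against 1426, array weights 2848 and the marker terms 670; the cause was not tested.

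Genes with separated ranges numbered 59 higher with TMM factors and also with quantile normalization, 19 with unlisted transcripts set to 0, and 68, 61 and, with a 5 FPKM filter that tests 7229 genes, 145 lower. Of 100 named genes, 90 kept 1 sign in every alternative. Signs turned for Mylk (0.0692 with quantile normalization, 0.12 with TMM, 0.12 with voom, 0.0547 with the terms; −0.24 to 0.0761 leaving out 1 library) and Nos3 (0.12, 0.07, 0.0241 and 0.011 in the same order; −0.34 to 0.0696). Leaving out 1 library turned Acta2 (−0.50 to 0.0195), Mrvi1 (−0.29 to 0.50), S100b (−0.046 to 0.22) and Ptgs2 (−0.14 to 0.61). Ptgs2 was −0.0148 with array weights, −0.43 with the terms and −0.51 without the 4 libraries, and Gpx3 −0.19 with the terms and −0.85 without the 4. Without the 4, Agtr1a was 0.0095, mt-Nd1 0.0243 and Itgam −0.0726. None of these was called, and the cause was not tested. No paired analysis was possible because the labels give no replicate numbers that link libraries of different groups.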
